A study of Rattus norvegicus with 42 samples.

Results

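Nanoceria injected into the eye were compared with vehicle injected into the eye in rats that saw no damaging light. The 9 libraries were all those with counts in these 2 groups, 4 of nanoceria and 5 of vehicle, out of 31 libraries analysed in the series. Nanoceria are nanoparticles of cerium oxide, and 1 mM was given by intravitreal injection, into the gel that fills the eye. The vehicle rats received vehicle by the same route. All were adult rats. The labels used here name neither their strain, sex and age in days or weeks, nor what the vehicle held, nor how long after injection the retinas were taken. The series also holds untreated control rats, rats exposed to light of 15000 lux for 24 h, and rats given nanoceria or vehicle together with that light. Poly(A) RNA was sequenced from dissected retinas, with libraries labelled as biological replicates. The p-values of genes below rest on the spread between libraries within groups, estimated over all 31 libraries analysed.

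Cerium in the oxide switches between its oxidation states and can take up reactive oxygen species, and nanoceria have been studied as antioxidants for the retina. The retina is built mostly of rod photoreceptors, with cones, bipolar, amacrine, horizontal and ganglion neurons, and with Mueller glia that span its thickness. Microglia are its resident immune cells, and blood vessels line its inner layers. An intravitreal injection can itself wound the eye and call in immune cells, which is why vehicle is the control for a particle given by that route.

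Total counts, in units of 1000000, lay between 83.4 and 113.8 in nanoceria libraries and between 73.4 and 121.3 in vehicle libraries. The defining genes of the retina were abundant throughout. Levels are given as CPM, the counts of a gene per 1000000 counts of its library after scaling by the trimmed mean of M-values (TMM). Sag, the rod arrestin gene, lay between 2448 and 3249 CPM in nanoceria and between 2704 and 3126 CPM in vehicle libraries. Vehicle libraries 4 and 7 were nearly the same. The median squared difference of their counts was 2.52 times that of sampling noise. For the other vehicle pairs it was 17.7 to 40.2 times and for the nanoceria pairs 13.2 to 26.5 times. Vehicle 4 and 7 were kept as 2 libraries, since the difference was above the noise, which does not show that they come from 2 animals. Whether they do was not tested. The p-values, SE and SD of genes below count them as 2 unless stated. The counts of called genes between nanoceria and vehicle are also given with them summed to 1. Y-linked genes were high in 2 of 4 nanoceria and 1 of 5 vehicle libraries, so the groups differed in their share of such libraries. Lens genes took 1.44%, 0.389%, 0.121% and 0.0863% of counts in nanoceria libraries 1, 2, 3 and 5, against 3.48%, 1.01%, 1.63%, 0.518% and 0.5003% in vehicle libraries 1, 2, 3, 4 and 7. The ranges overlapped, and the difference did not pass a 2-sided exact permutation test (p = 0.19, adjusted p = 0.619 over 6 library values). All 21 lens genes tested were lower in nanoceria, with a median log2 fold change of -1.61, and none was called. Without nanoceria 1 that median was -3.31, and with limma-voom it was -0.48. The part of lens tissue in the results below was not tested.

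No gene passed the test between nanoceria and vehicle. Among 18094 genes put to edgeR's quasi-likelihood test, 0 were higher and 0 were lower at a Benjamini-Hochberg adjusted p under 0.05 (0% each), and the smallest adjusted p was 0.133. At an unadjusted p under 0.05 there were 622 genes higher (3.44%) and 399 lower (2.21%), 1021 in all (5.64%), where about 905 would come from chance alone. With the 2 groups fitted alone edgeR also called 0, with 1509 at an unadjusted p under 0.05 and a smallest adjusted p of 0.0632. The Wald test of DESeq2 called 40 genes, 24 of them higher and 16 lower, and limma-voom with library quality weights called 1486, 799 higher and 687 lower. Vehicle 4 and 7 were also summed, with the same done for a near-identical pair of light-damaged libraries. Then edgeR called 0 genes, with 727 at an unadjusted p under 0.05 and a smallest adjusted p of 0.539. With these pairs summed, limma-voom with the same weights called 0 and DESeq2 9. The differences below are therefore given as values that did not pass the main test, and “higher” and “lower” state only the sign of the log2 fold change, the log2 ratio of nanoceria over vehicle. In 351 genes every nanoceria library was above every vehicle library (1.94%), and in 231 every nanoceria library was below (1.28%). Of all genes, 43.8% had a log2 fold change above 0. Most differences were small: the median absolute log2 fold change was 0.09, and 90% of genes lay between -0.40 and 0.52.

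The 10 genes with the smallest p were Nog, Npas4, Cd84, Chodl, Chi3l1, Gpr183, AABR07030544.1, Fam167b, Egr4 and Cmtr2. Nog, which encodes the secreted BMP antagonist noggin, had 13.2, 4.09, 21.7 and 5.48 CPM in nanoceria libraries and 2.68, 3.39, 2.01, 3.14 and 2.97 CPM in vehicle libraries. The groups did not overlap, and nanoceria 1 and 3 stood well above the other two. The log2 fold change was 1.97 ± 0.36 (SE), with an adjusted p of 0.133 (edgeR), and 2.00 with the near-identical pairs summed (adjusted p = 0.539). It was 2.24 without nanoceria 2 (adjusted p = 0.00741) and 2.19 without nanoceria 5 (adjusted p = 0.0300), and 1.32 without the libraries of replicate number 3 in all groups (adjusted p = 0.68). Untreated control retinas had 6.15 to 10.1 CPM, a range that lies above all 5 vehicle libraries and within that of the nanoceria libraries.

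Genes that leukocytes or reactive glia make followed. Cd84, a receptor of the SLAM family on leukocytes, had 5.22, 4.34, 3.48 and 2.29 CPM in nanoceria and 1.19, 1.96, 1.62, 1.80 and 1.47 CPM in vehicle libraries (log2 fold change 1.25 ± 0.25, adjusted p = 0.163). Without nanoceria 5 it was 1.43 (adjusted p = 0.0391), and with the near-identical pairs summed 1.26 (adjusted p = 0.773, edgeR). Gpr183, the oxysterol receptor that guides B cells and other leukocytes, averaged 3.68 ± 0.464 CPM in nanoceria and 2.15 ± 0.238 CPM in vehicle libraries (SD, n = 4 and 5), with a log2 fold change of 0.78 ± 0.17. Chi3l1, a chitinase-like protein secreted by reactive glia and macrophages, had 300, 153, 175 and 183 CPM in nanoceria and 69.1, 135, 95.9, 44.8 and 44.7 CPM in vehicle libraries (1.38 ± 0.30, adjusted p = 0.227), and its log2 fold change was 1.67 without vehicle 2 (adjusted p = 0.047). None of the 3 overlapped between the groups, and the library that came nearest to the other group was nanoceria 5 for Cd84 and Gpr183 and nanoceria 2 for Chi3l1. Chodl, a membrane lectin, was at 7.84, 15.9, 7.68 and 8.51 CPM in nanoceria and at 4.38 to 6.12 CPM in vehicle libraries. Fam167b averaged 2.95 ± 0.488 CPM in nanoceria and 1.68 ± 0.294 CPM in vehicle libraries, and AABR07030544.1, a gene without a name, 0.311 ± 0.0614 CPM in nanoceria and 0.125 ± 0.0263 CPM in vehicle libraries. Cmtr2, which methylates the cap of mRNA, was lower, at 14.1 to 15.1 CPM in nanoceria and 15.9 to 19.9 CPM in vehicle libraries (log2 fold change -0.33 ± 0.08).

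**Figure D1:**
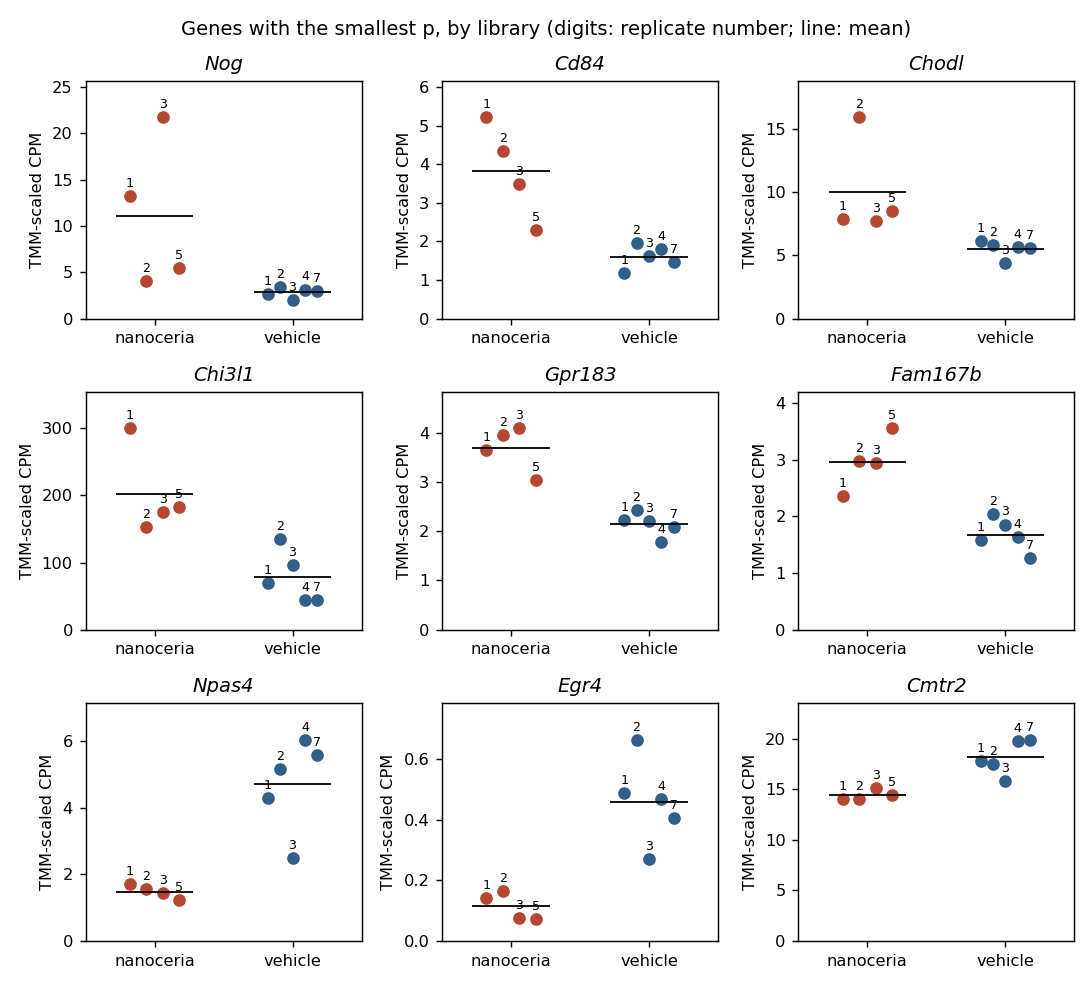
TMM-scaled CPM of 9 of the 10 genes with the smallest p, 1 point per library with its replicate number, nanoceria left and vehicle right, the line marking the mean (all axes start at 0). The 2 groups do not overlap in any panel, and no gene passed the test.

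The other two lower genes of the 10, Npas4 and Egr4, are immediate early genes, which neurons transcribe within minutes of activity through factors that sit on their promoters beforehand. CREB, one such factor, binds the cAMP response element, TGACGTCA, or its core TGACG. The promoters of the 3 genes of this family with the smallest p are shown for that reason (250 bases before to 50 after the start, RefSeq, GRCr8, 5′ to 3′ on the gene's strand), with TGACG on either strand in capitals, which reads CGTCA where it lies on the other strand. Npas4 is at chr1:211716053-211716352, minus strand, Egr4 at chr4:119607768-119608067, minus strand and Nr4a1 at chr7:134259888-134260187, plus strand.
Npas4: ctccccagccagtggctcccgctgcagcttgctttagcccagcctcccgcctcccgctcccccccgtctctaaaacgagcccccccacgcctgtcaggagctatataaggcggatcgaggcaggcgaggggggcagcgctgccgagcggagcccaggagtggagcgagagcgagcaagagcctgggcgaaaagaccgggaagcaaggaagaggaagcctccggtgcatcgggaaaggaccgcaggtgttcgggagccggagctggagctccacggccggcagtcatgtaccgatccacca
Egr4: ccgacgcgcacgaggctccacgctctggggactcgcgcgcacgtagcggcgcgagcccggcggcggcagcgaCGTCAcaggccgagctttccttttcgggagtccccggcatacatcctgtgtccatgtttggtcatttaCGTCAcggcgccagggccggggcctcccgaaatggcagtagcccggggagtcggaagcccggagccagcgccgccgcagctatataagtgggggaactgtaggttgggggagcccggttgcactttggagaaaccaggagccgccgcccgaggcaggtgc
Nr4a1: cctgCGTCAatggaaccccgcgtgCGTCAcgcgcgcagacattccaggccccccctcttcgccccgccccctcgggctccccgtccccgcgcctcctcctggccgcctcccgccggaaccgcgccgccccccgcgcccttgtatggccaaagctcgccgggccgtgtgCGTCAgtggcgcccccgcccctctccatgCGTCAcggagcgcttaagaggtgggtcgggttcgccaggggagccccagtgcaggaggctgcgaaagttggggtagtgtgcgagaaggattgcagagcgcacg
Egr4 held 2 of these matches and Nr4a1 held 4, and the Npas4 window held none. Of all 33469 promoters in RefSeq's set, 21.2% held TGACG on either strand, against 13 of the 20 immediate early genes with an entry. The full TGACGTCA, which contains TGACG on both strands, was in 1.83% of all promoters and in 5 of the 20, and the CArG box of serum response factor was in 1.64% and in 4 of the 20. These are matches of letters, not measured binding.

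Of 28 immediate early genes tested, 22 had a lower and 6 a higher level in nanoceria than in vehicle libraries, with a median log2 fold change of -0.24, where the median of all genes was -0.02. None was called, and 7 were lower and 0 higher at an unadjusted p under 0.05, where 2.21% of all genes were lower. In 6 (21.4%, against 1.28% of all genes) every nanoceria library was below every vehicle library. Npas4, a transcription factor that depolarised neurons make, had 1.70, 1.55, 1.45 and 1.23 CPM in nanoceria and 4.29, 5.16, 2.48, 6.05 and 5.58 CPM in vehicle libraries (log2 fold change -1.67 ± 0.33, adjusted p = 0.163). With the near-identical pairs summed that log2 fold change was -1.58 (adjusted p = 0.773, edgeR). Vehicle 3 was the lowest of its group and still above all 4 nanoceria libraries. Control retinas had 2.10 to 3.66 CPM, so the nanoceria libraries were also below all controls. Egr4 was read from few counts, 8 to 14 per nanoceria library and 18 to 78 per vehicle library, and its log2 fold change was -2.02 ± 0.46 (adjusted p = 0.227).

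Nr4a1 (Nur77), an orphan nuclear receptor, had 20.3, 22.8, 25.6 and 25.4 CPM in nanoceria and 48.2, 76.5, 27.8, 67.5 and 65.8 CPM in vehicle libraries (log2 fold change -1.28 ± 0.32, adjusted p = 0.303). It and the other members named in this paragraph were chosen after their values were seen. Fosb averaged 3.54 CPM in nanoceria and 6.21 CPM in vehicle libraries, Fos 16.9 CPM in nanoceria and 28.6 CPM in vehicle libraries, and Ier2 35.01 CPM in nanoceria and 42.52 CPM in vehicle libraries, each without overlap between groups. Arc, a synaptic protein, averaged 1.52 CPM in nanoceria and 2.40 CPM in vehicle libraries, and Egr3 0.833 CPM in nanoceria and 1.68 CPM in vehicle libraries, with overlap. Other members were close to the same level in both groups: Nr4a3, Junb, Egr2 and Ier5 had log2 fold changes between -0.04 and 0.06. The summed level of the 28 genes was 816 to 1118 CPM in nanoceria and 1017 to 1206 CPM in vehicle libraries. Nanoceria 3 was the nanoceria library that reached into the vehicle range. With vehicle 4 and 7 summed the list median was -0.25, and over the other settings it stayed between -0.34 and -0.19. DESeq2 called Npas4, Egr4 and Nr4a1 (adjusted p = 0.000836, 0.00936 and 0.0268), and with the pairs summed it called Npas4 among them (adjusted p = 0.0184).

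Genes of blood vessels were mostly higher in nanoceria libraries. Of 19 endothelial and pericyte genes tested 16 were higher, with a median log2 fold change of 0.35. At an unadjusted p under 0.05, 8 were higher and 0 lower, where 3.44% of all genes were higher. In 7 (36.8%, against 1.94% of all genes) every nanoceria library was above every vehicle library. None was called. Vwf, the clotting factor stored in endothelium, had 74.9, 66.9, 64.8 and 64.1 CPM in nanoceria and 36.5, 64.0, 39.8, 34.1 and 35.3 CPM in vehicle libraries (log2 fold change 0.69 ± 0.18, adjusted p = 0.319). Vehicle 2 lay just under the nanoceria range, and without it the log2 fold change was 0.89 (adjusted p = 0.0483). Plvap, the diaphragm protein of leaky vessels, had 55.6, 79.8, 78.0 and 78.5 CPM in nanoceria and 48.2, 51.6, 49.9, 34.5 and 33.9 CPM in vehicle libraries (0.74 ± 0.21, adjusted p = 0.380). Others without overlap, chosen after their values were seen, were the pericyte receptor Pdgfrb (0.47 ± 0.15), the endothelial receptor Tie1 (0.66 ± 0.22), the junction cadherin Cdh5 (0.52 ± 0.19) and the pericyte potassium channel subunit Kcnj8 (0.48 ± 0.19). Among genes of the blood-retina barrier, also chosen after their values were seen, the log2 fold change was 0.24 ± 0.21 for Cldn5, -0.15 ± 0.27 for Ocln and -0.03 ± 0.17 for Mfsd2a. The smooth muscle actin gene Acta2 was at -0.10 ± 0.42. The 8 blood genes tested were all higher, with 0 at an unadjusted p under 0.05. Their median was 0.36, and -0.04 without the libraries of replicate number 3. They overlapped between the groups and summed to 56.8 to 152 CPM in nanoceria and 41.2 to 127 CPM in vehicle libraries. In RNA of a whole tissue, more cells of a type and more RNA per cell cannot be told apart.

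**Figure D2:**
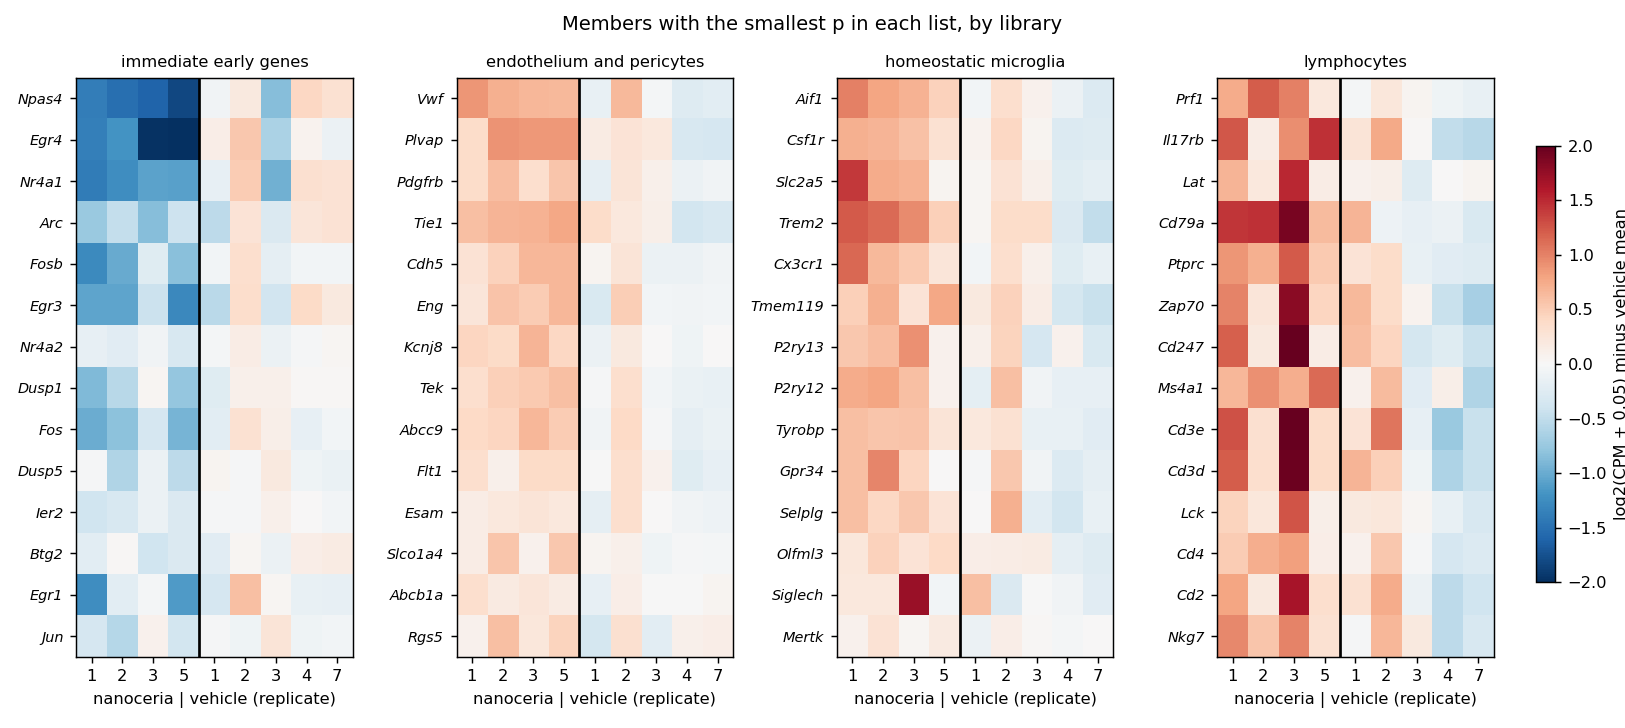
Level of the 14 members with the smallest p of 4 lists in each library, as log2(CPM + 0.05) minus the mean of the vehicle libraries, with nanoceria libraries left of the black line and vehicle libraries right of it. Immediate early genes are mostly blue in the nanoceria columns, with a median log2 fold change of -0.24 over the whole list, and the whole lists of vessel, microglial and lymphocyte genes have medians of 0.35, 0.53 and 0.72.

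Microglial genes were also mostly higher. Of 17 genes of resting microglia 14 were higher and 3 lower (median log2 fold change 0.53), and none was called. At an unadjusted p under 0.05, 9 were higher and 0 lower, against 3.44% and 2.21% of all genes. Aif1, which encodes the microglial marker IBA1, had 20.2, 17.5, 16.3 and 13.9 CPM in nanoceria and 9.72, 12.8, 10.7, 9.33 and 8.35 CPM in vehicle libraries (0.74 ± 0.21, adjusted p = 0.380). The receptor gene Csf1r, on whose signal microglia depend, had 132, 128, 120 and 98.8 CPM in nanoceria and 84.0, 107, 83.2, 66.5 and 67.0 CPM in vehicle libraries, so that vehicle 2 reached into the nanoceria range. Trem2, a lipid receptor of microglia, was apart in every library (log2 fold change 0.95 ± 0.32), and the fractalkine receptor gene Cx3cr1 overlapped (0.67 ± 0.24); both were chosen after their values were seen. In 3 of the 17 genes (17.6%, against 1.94% of all genes) the groups did not overlap. Among the lower members, Bin1 was at -0.05 ± 0.11 and Sall1 at -0.10 ± 0.28.

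Genes of activated phagocytes were higher in 23 of 29, with a median of 0.33. Clec7a, a receptor for fungal glucans, averaged 5.48 ± 1.87 CPM in nanoceria and 3.22 ± 0.60 CPM in vehicle libraries, with overlap. Fcgr3a, an Fc receptor, averaged 10.4 ± 1.74 CPM in nanoceria and 5.50 ± 1.35 CPM in vehicle libraries, without overlap. Cd68, Apoe and Ctsd, chosen after their values were seen and known from lysosome-rich phagocytes, were at 0.27 ± 0.34, 0.06 ± 0.16 and 0.14 ± 0.12. Of 9 genes of the phagocyte NADPH oxidase, which makes superoxide, 6 were higher and 3 lower (median 0.16, and -0.02 without the libraries of replicate number 3), and all 9 overlapped between the groups. Its members with the smallest p, Ncf1 and Cybb, had log2 fold changes of 0.77 ± 0.20 and 0.69 ± 0.22 (adjusted p = 0.321 and 0.445). Of 19 genes of antigen presentation 14 were higher, 4 at an unadjusted p under 0.05 (3.44% of all genes). The class II gene RT1-Da was at 0.62 ± 0.23 and the invariant chain gene Cd74 at 0.56 ± 0.21, and the class I gene RT1-A2 was at -0.06 ± 0.24. The interferon response had 0 of 33 genes at an unadjusted p under 0.05.

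Lymphocyte genes were higher in 25 of 25, with a median log2 fold change of 0.72, 16 of them at an unadjusted p under 0.05 (3.44% of all genes) and none called. In 3 (12%, against 1.94% of all genes) the groups did not overlap. All were scarce, and their summed level was 99.5 to 133 CPM in nanoceria and 63.9 to 95.7 CPM in vehicle libraries. Prf1, the pore protein of cytotoxic cells, had 0.734, 1.04, 0.891 and 0.490 CPM in nanoceria and 0.372 to 0.495 CPM in vehicle libraries (0.91 ± 0.25, adjusted p = 0.335). Cd79a, part of the B cell receptor, was read from 24 to 63 counts per nanoceria library and 7 to 22 per vehicle library. The T cell receptor chain gene Cd3e had 3.00 CPM in nanoceria 3 and 0.731 to 1.47 CPM in the other nanoceria libraries, against 0.327 to 1.27 CPM in vehicle libraries. The list median was 0.68 with vehicle 4 and 7 summed and 0.48 without the libraries of replicate number 3. Some of these genes, such as Ptprc (CD45) and Cd4, are also made by microglia and macrophages.

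Complement and reactive glia were also mostly higher, with more spread. Of 23 complement genes 19 were higher (median 0.45), 9 of them at an unadjusted p under 0.05 (3.44% of all genes), while C5 alone was lower at that level. The groups overlapped in all of them but C5, in which every nanoceria library was below every vehicle library (4.35% of the list, against 1.28% of all genes). C3, on which the pathways converge, had 318, 90.6, 124 and 43.4 CPM in nanoceria and 62.7, 58.9, 49.3, 28.7 and 29.99 CPM in vehicle libraries. Nanoceria 1 was far above the rest and nanoceria 5 was within the vehicle range (log2 fold change 1.65 ± 0.50, adjusted p = 0.425, and 0.90 without nanoceria 1). The C1 protease gene C1s averaged 122 ± 17.9 CPM in nanoceria and 74.7 ± 19.6 CPM in vehicle libraries, and C1qa, a chain of the recognition protein, 72.9 ± 18.3 CPM in nanoceria and 44.97 ± 14.9 CPM in vehicle libraries. Among reactive glia genes 22 of 27 were higher (median 0.24). Cp, the copper ferroxidase ceruloplasmin, had 376, 197, 254 and 223 CPM in nanoceria and 149, 190, 147, 129 and 130 CPM in vehicle libraries, without overlap (0.82 ± 0.19, adjusted p = 0.248). Lcn2, an iron-siderophore binder chosen after its values were seen, was at 146, 82.7, 51.9 and 5.82 CPM in nanoceria and at 48.5, 1.48, 17.4, 21.1 and 20.9 CPM in vehicle libraries. Gfap, the intermediate filament of reactive Mueller glia, overlapped widely, at 238, 127, 131 and 265 CPM in nanoceria and 346, 132, 81.3, 50.8 and 49.1 CPM in vehicle libraries, and the 23 Mueller glia genes had a median of -0.01 with none at an unadjusted p under 0.05.

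**Figure D3:**
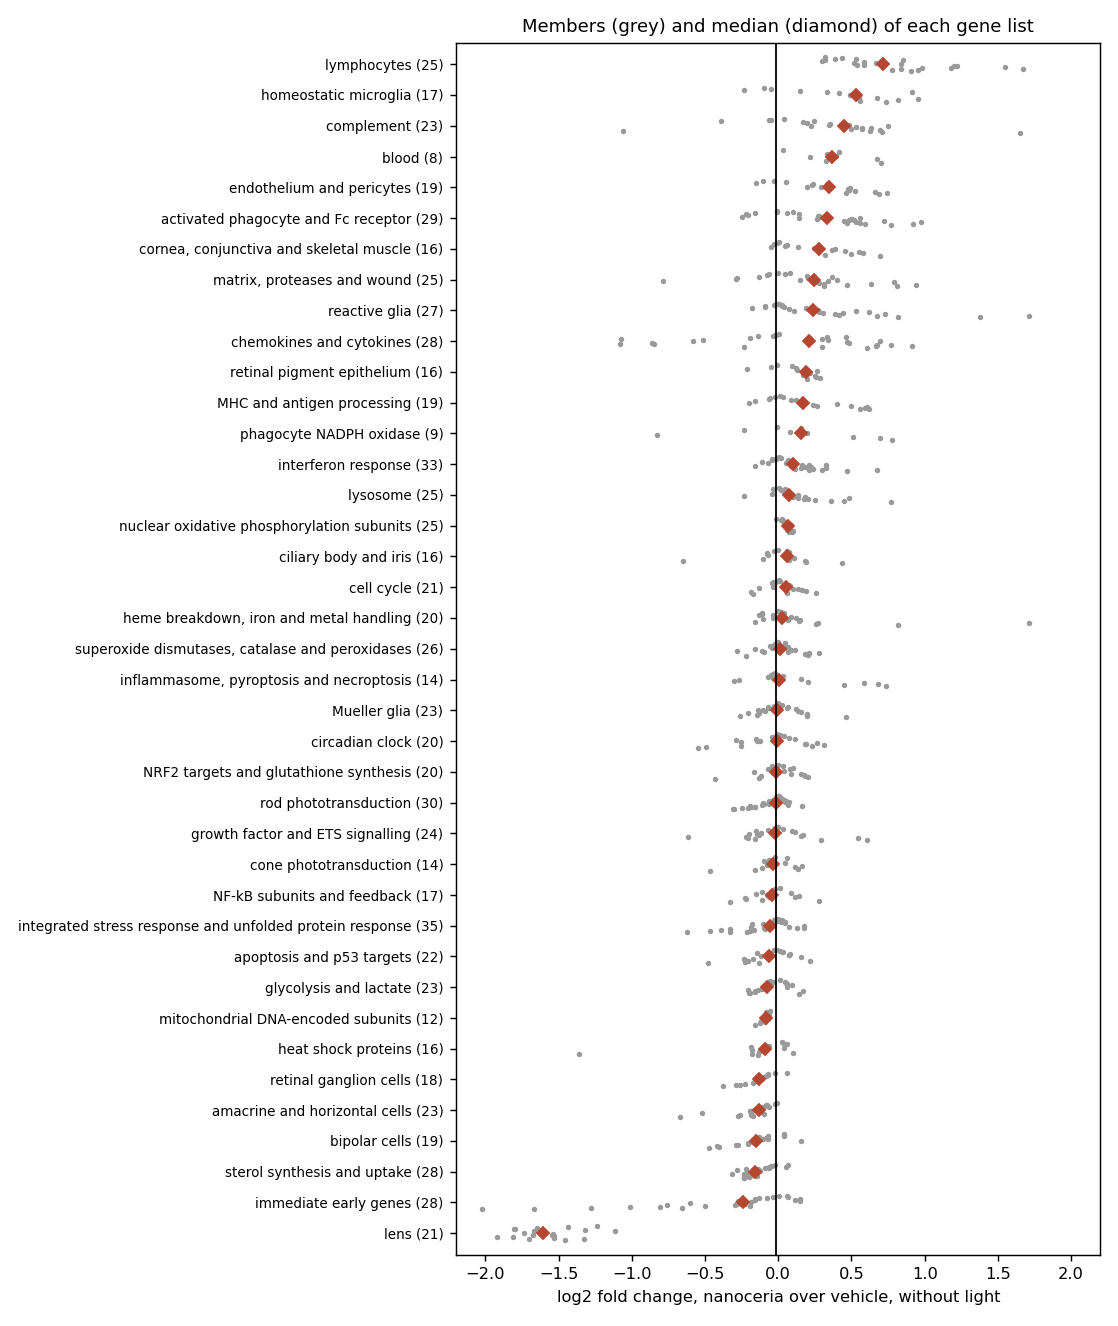
Log2 fold change of nanoceria over vehicle for the members of each gene list but the Y-linked one (grey points), with the median as a diamond and the number of members tested in brackets; the line is the median of all genes. Of the lists drawn, lymphocyte, microglial and complement medians lie furthest right at 0.72, 0.53 and 0.45, immediate early genes at -0.24 and lens at -1.61, and Hsp90aa1, listed at 0 in 8 of the 9 libraries, lies outside the axis.

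Genes that cells use against reactive oxygen species were near the same level in both groups. Of 26 superoxide dismutases, catalase, peroxidases and their partners 13 were higher and 13 lower, with a median log2 fold change of 0.01 and a range from -0.28 to 0.28. None was called, and Glrx2, a mitochondrial glutaredoxin, alone reached an unadjusted p under 0.05 (-0.22 ± 0.08, adjusted p = 0.593). Sod1, the cytosolic dismutase, had 131, 132, 114 and 174 CPM in nanoceria and 136, 138, 133, 133 and 125.995 CPM in vehicle libraries, with a 95% interval of the log2 fold change from -0.17 to 0.27. For the mitochondrial Sod2 the values were 106 to 116 CPM in nanoceria and 107 to 133 CPM in vehicle libraries. Catalase (Cat) averaged 93.99 ± 3.98 CPM in nanoceria and 82.8 ± 10.15 CPM in vehicle libraries, and Gpx4, which reduces lipid peroxides, 321 ± 56.6 CPM in nanoceria and 328 ± 34.6 CPM in vehicle libraries. The interval excluded a 2-fold change in either direction in 25 of the 26 genes. Such narrow intervals were not particular to this list. They were found in 23 of 23 glycolysis and 28 of 28 sterol genes, but in 2 of 25 lymphocyte genes. The share over all genes was not computed. NRF2 is the factor that oxidants release from KEAP1. The list of NRF2 targets and glutathione synthesis, which also holds the genes of NRF2 and KEAP1, had 20 genes tested. Of these, 9 were higher and 11 lower (median -0.02), with 0 at an unadjusted p under 0.05 and 19 intervals inside a 2-fold change. Nqo1 had the lowest value of these, with 33.3, 26.5, 38.7 and 25.8 CPM in nanoceria and 67.0, 24.2, 47.3, 35.4 and 35.6 CPM in vehicle libraries. Hmox1, heme oxygenase, was at 10.5 to 14.2 CPM in nanoceria and 10.19 to 14.3 CPM in vehicle libraries. The sign of both list medians was the opposite in 7 of 25 other settings each.

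**Figure D4:**
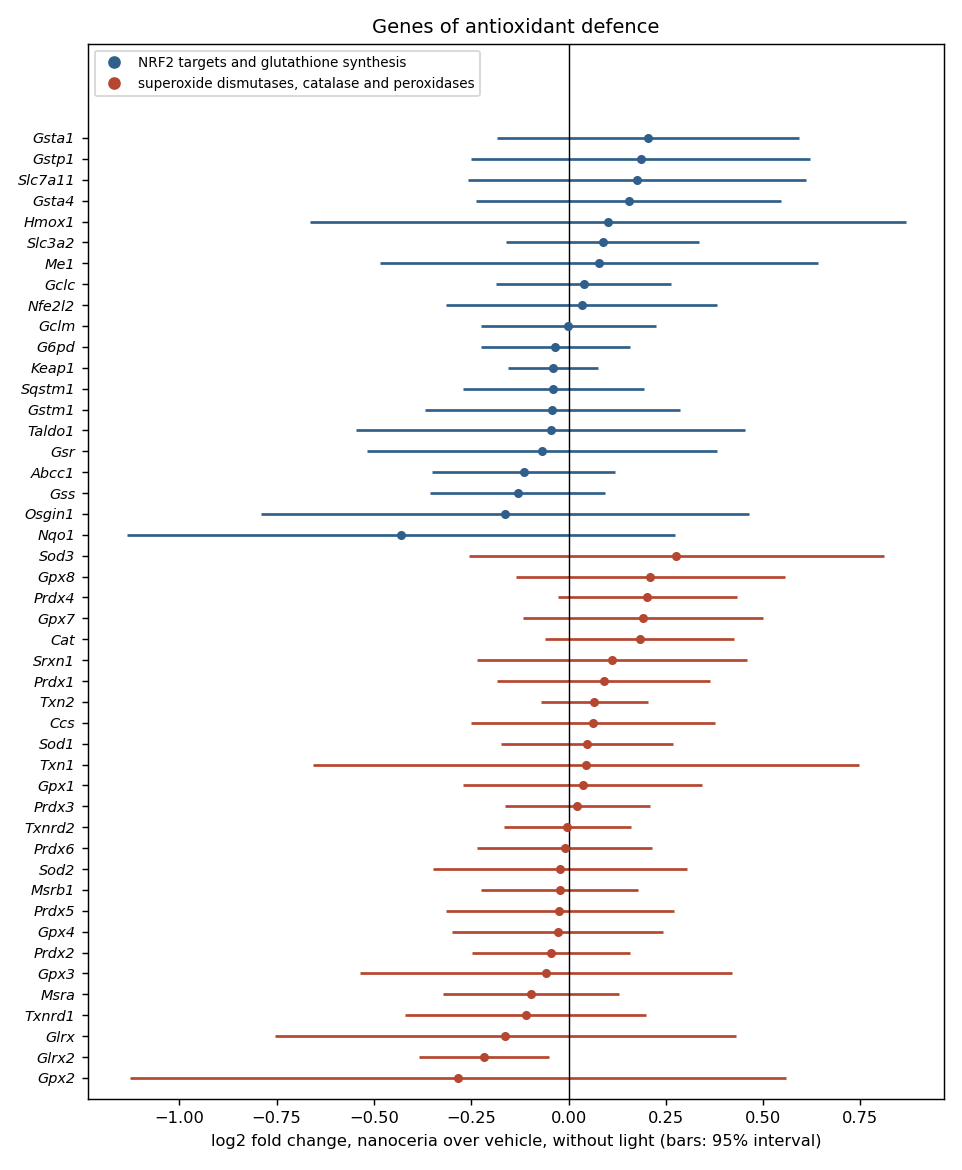
Log2 fold change of nanoceria over vehicle without light for NRF2 targets and glutathione synthesis (blue, above) and for superoxide dismutases, catalase and peroxidases (red, below), with 95% intervals. All intervals but that of Glrx2 cross 0, and those of Nqo1 and Gpx2 are the 2 that reach beyond a 2-fold change.

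Rod genes were near the same level too. Of 30 rod phototransduction genes 13 were higher and 17 lower (median -0.02), none at an unadjusted p under 0.05, and 29 intervals lay within a 2-fold change. That count was not particular to rods, since the intervals of all 19 bipolar cell genes did so too. Gnat1, rod transducin, averaged 11020 CPM in nanoceria and 11870 CPM in vehicle libraries, with a 95% interval of the log2 fold change from -0.96 to 0.75. The 14 cone genes had a median of -0.03, and the short-wavelength cone pigment gene Opn1sw was at 14.2 to 23.2 CPM in nanoceria and 13.4 to 36.8 CPM in vehicle libraries. Most genes of inner retinal neurons were lower by small amounts: 0 of 23 amacrine and horizontal cell genes were higher (median -0.13), 4 of 19 bipolar cell genes (median -0.15) and 1 of 18 ganglion cell genes (median -0.13, and 0.01 with limma-voom). At an unadjusted p under 0.05 there were 1, 2 and 0 lower among them (2.21% of all genes), and 43.8% of all genes were above 0. Onecut2, a factor of horizontal cells, was the amacrine and horizontal cell gene with the smallest p, at 0.332 to 0.436 CPM in nanoceria and 0.467 to 0.702 CPM in vehicle libraries.

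Metabolic and stress genes differed by small amounts. Sterol synthesis and uptake genes were lower in 26 of 28 (median -0.16), with 2 at an unadjusted p under 0.05 (2.21% of all genes), among them Mvd of the mevalonate pathway (-0.23 ± 0.10). Nuclear genes of oxidative phosphorylation were higher in 24 of 25 (median 0.07) and the 12 genes of mitochondrial DNA were all lower (median -0.08), in each case with 0 at an unadjusted p under 0.05. The list for protein folding stress and the integrated stress response had 35 genes tested, 9 higher and 26 lower (median -0.05), with 2 lower at an unadjusted p under 0.05 (2.21% of all genes). Atf4, the effector of the integrated stress response, had 423, 460, 446 and 534 CPM in nanoceria and 636, 564, 541, 587 and 599 CPM in vehicle libraries, without overlap (-0.33 ± 0.09, adjusted p = 0.327). Of its targets, Asns, asparagine synthetase, was at 0.05 ± 0.13. Trib3 averaged 3.96 CPM in nanoceria and 6.09 CPM in vehicle libraries, with overlap. Of 20 clock genes 9 were higher and 11 lower (median -0.01), with 1 higher and 2 lower at an unadjusted p under 0.05. In 3 (15%, against 1.28% of all genes) every nanoceria library was below every vehicle library, and in 0 above. The 2 with the smallest p were both lower. Nfil3 was at 9.32 to 10.17 CPM in nanoceria and 13.03 to 15.03 CPM in vehicle libraries. Npas2 was at 7.95 to 13.8 CPM in nanoceria and 14.6 to 15.8 CPM in vehicle libraries.

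The remaining lists had 0 genes called. Of 25 lysosomal genes 22 were higher (median 0.07), 6 at an unadjusted p under 0.05 (3.44% of all genes), and the cathepsin gene Ctsh was at 0.36 with no overlap. Of 20 genes of heme, iron and metal handling 11 were higher (median 0.03). At an unadjusted p under 0.05, 3 of them were higher (3.44% of all genes) and 0 lower. Those with the smallest p were Cp (0.82, without overlap) and Blvra (0.26, with overlap), and Fth1, the ferritin heavy chain, was at 0.00. Of 25 genes of matrix, proteases and wounds 18 were higher (median 0.24), of 28 chemokine and cytokine genes 16 (0.21), of 14 inflammasome and necroptosis genes 7 (0.00) and of 21 cell cycle genes 14 (0.05). At an unadjusted p under 0.05 these lists had, in that order, 3, 2, 3 and 0 genes higher (3.44% of all genes) and 0 lower in each. Of 22 apoptosis and p53 genes 8 were higher (median -0.06), and Gadd45g, a stress-induced growth arrest gene, had 17.8, 13.6, 14.9 and 17.2 CPM in nanoceria and 24.0, 21.1, 20.8, 22.5 and 22.5 CPM in vehicle libraries. Medians were -0.08 for 23 glycolysis genes, -0.09 for 16 heat shock genes, -0.05 for 17 NF-kB genes and -0.03 for 24 growth factor and ETS genes. For tissues beside the retina, medians were 0.19 for 16 genes of the pigment epithelium, 0.06 for 16 of ciliary body and iris, 0.28 for 16 of cornea, conjunctiva and muscle and 0.36 for 8 of blood, with 0 at an unadjusted p under 0.05.

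The same injections were also compared in rats that received the damaging light, in 5 nanoceria plus light and 5 vehicle plus light libraries that share none with the pair above. There edgeR called 0 genes (0%), with 257 at an unadjusted p under 0.05 (1.42%). The difference between the 2 comparisons was called in 0 genes by edgeR and in 0 by limma-voom and 1 by DESeq2 (0 by each with the near-identical pairs summed), with 415 at an unadjusted p under 0.05 by edgeR (2.29%). Under light the log2 fold change was 0.21 ± 0.33 for Nog, 0.00 ± 0.24 for Cd84, -0.13 ± 0.28 for Chi3l1 and -0.29 ± 0.29 for Npas4, against 1.97, 1.25, 1.38 and -1.67 without light. The unadjusted p of the difference was 0.00112, 0.0011, 0.000999 and 0.00385 for these genes, and no adjusted p passed. They were picked for their small p without light, which is one side of that difference, so these unadjusted values are a description and no test. List medians under light were -0.07 for microglia, -0.14 for lymphocytes, 0.05 for vessels and -0.16 for immediate early genes, against 0.53, 0.72, 0.35 and -0.24 without light. As these lists were picked for their values without light, their medians are likewise a description and no test. Of the 622 genes that were higher without light at an unadjusted p under 0.05, 57.9% were higher under light too, as were 50.4% of all genes. Of the 399 lower ones 74.7% were lower under light, as were 49.6% of all genes.

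**Figure D5:**
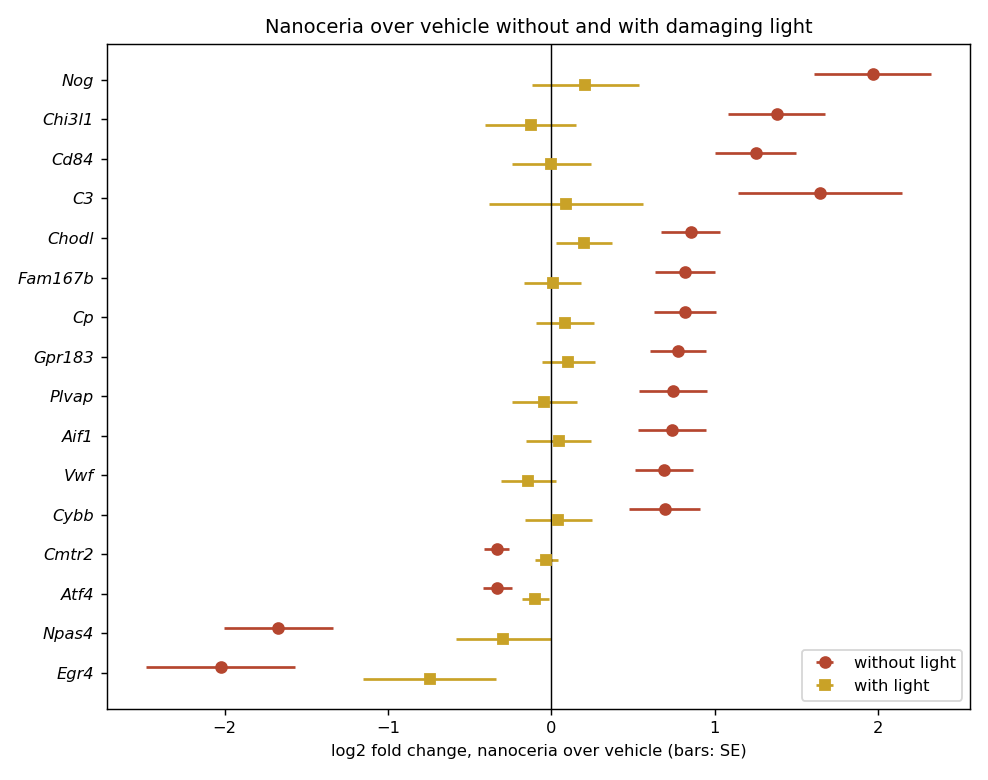
Log2 fold change of nanoceria over vehicle ± SE for 16 genes, without light (circles, above) and with light (squares, below). Of the 16 genes with light, Egr4 is furthest from 0 at -0.74, while Nog is at 0.21 and Chi3l1 at -0.13. The genes were picked for a small p without light, over all genes or in their list, so the contrast is a description and no test.

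Untreated control retinas give a base for both groups, in comparisons that share the control libraries with each other and the nanoceria or vehicle libraries with the one above. Against control, nanoceria had 313 genes higher (1.73%) and 132 lower (0.73%), and vehicle had 2 higher and 2 lower (0.0111% each), by edgeR. Cd84 was at a log2 fold change of 2.05 in nanoceria (adjusted p = 5.73e-05) and 0.80 in vehicle (adjusted p = 0.347) over control. Chi3l1 was at 2.76 in nanoceria (adjusted p = 1.14e-05) and 1.38 in vehicle (adjusted p = 0.0852), and C3 at 2.60 in nanoceria and 0.95 in vehicle. The control retinas had 17.8 to 33.9 CPM of Chi3l1, under all nanoceria and all vehicle libraries. Nog was at 0.44 in nanoceria and -1.53 in vehicle over control, and Npas4 at -0.88 in nanoceria and 0.79 in vehicle, none of them called. Vwf was at 0.70 in nanoceria (adjusted p = 0.0299) and 0.01 in vehicle. A call against control in one group and not in the other is no test between the groups, for which the values above stand.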

How the data were processed

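The deposited table holds raw counts per gene: all values are whole numbers and the library totals differ. Per the submitters' processing notes, the tools were Trimmomatic 0.39, STAR 2.7.9a, featureCounts of Subread 2.0.1, DESeq2 1.30.1 and R 4.0, with build rn6; strand setting, annotation and treatment of multi-mapping reads: not given in the sources used here. Names of 4504 genes carry a copy suffix, and such genes can share reads.

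Counts were analysed for 31 of 42 labelled samples; 11 were not analysed here. filterByExpr (minimum count 10, minimum total 15) kept 18094 of 32623 genes. edgeR 4.0.16 (robust quasi-likelihood test, TMM scaling, 1 coefficient per group, 31 libraries, R 4.3.3) tested nanoceria minus vehicle, with Benjamini-Hochberg adjustment over all genes tested and calls at 0.05. CPM were computed from the counts with TMM scaling. The scripts were tested on simulated data. A pair of libraries was called near-identical when its median squared count difference was under 5 times that of sampling noise. Library values were compared by exact permutation (scipy 1.17.1).

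The comparison and 40 gene lists (883 members, 38 unmatched) were chosen with earlier results of these data known. Named genes were the 10 with the smallest p, the 2 members of each list with the smallest p and a fixed set of genes; all other genes named were chosen after their values were seen. A few genes that the rule picks are not reported here. Alternatives used limma 3.58.1 and DESeq2 1.42.0, other scaling, filters, subsets of libraries, a replicate block and left-out libraries.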

Additional observations from a re-analysis of the deposited data

Results flagged for a closer look

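Among 94 groups of values tested by the Dixon ratio of 1 library against its group, 6 had a library that stood apart, where chance gives about 4.7. In nanoceria libraries these were Chodl in nanoceria 2 at 15.9 CPM and Cxcl11 in nanoceria 1 at 1.09 CPM. In vehicle libraries they were Sod2 at 133.1 CPM, Gfap at 345.8 CPM and the lens gene Cryga at 134.8 CPM, all in vehicle 1, and C1qa in vehicle 2 at 71.2 CPM. Vehicle 1 was also the library with the largest share of lens counts of the 9.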

How the results depend on the processing

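The count of called genes depended on the tool and, for DESeq2 and limma-voom, on whether the near-identical pairs were summed. For nanoceria against vehicle it was 0 with edgeR under other scaling, without the filter on low counts (23234 genes), with the 2 groups alone, with the libraries without light alone, with near-identical pairs summed (also in the 2 groups alone) and with a term for Y-linked genes, with 727 to 1509 at an unadjusted p under 0.05. It was 40 with DESeq2 and 9 with DESeq2 and pairs summed. It was 1486 with limma-voom and quality weights, and 0 with the same weights and pairs summed. Some fits were added after seeing the data: DESeq2 and limma-voom with pairs summed, the summed pairs in the 2 groups alone and the libraries without light. Leaving out libraries gave 0 to 13 calls: 1 without nanoceria 2 (Nog), 2 without nanoceria 5 (Nog and Cd84), 3 without vehicle 2 (Vwf, Chi3l1 and Serpine3) and 13 without replicate number 2 in all groups, all higher. For the difference between no light and light the counts were 0 but for 1 with DESeq2 and 0 to 1 over left-out libraries, the 1 (Serpine3) without replicate number 2. The cause was not tested. With the replicate block the counts were 0 (899 at an unadjusted p under 0.05) and 0 (374). The fit of the 2 groups alone was not run for the difference between light conditions, which needs 4 groups. Same-numbered nanoceria and vehicle libraries correlated at 0.162, 0.198 and 0.079 in their deviations, and the other pairs at -0.225 to 0.135. Whether the numbers mark pairs was not tested. The main fit did not pair them, and the replicate block is the fit that used the numbers.

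Of 2775 values of 111 named genes over 25 settings, 3 had the opposite sign of a main value more than 1 SE from 0: Opn1sw at 0.18 and Cryga at 0.25 with limma-voom, and Cryga at 1.06 without vehicle 1 (-3.46 to 1.06 over left-out libraries), none of which was called. Low genes such as Egr4, Cd79a and Ms4a1 are limited by depth, with 0 to 8 counts of Ms4a1 per vehicle library.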
